A study of Homo sapiens with 32 samples.

Results

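The 10 imprinted genes H19, MEG3, DLK1, PEG3, PEG10, SGCE, MEST, PLAGL1, GRB10 and NNAT were followed in Ewing sarcoma cells that lost the cohesin subunit STAG2 or a subunit of the Polycomb Repressive Complex 2 (PRC2). The 10 genes were taken by symbol among the 28278 gene symbols of the count tables, and by Ensembl identifier among the 60199 genes of the knockdown table, and each was found in both. Of these, 9 had at least 1 read in a count library, and 8 exceeded 3 reads in an A673 clone library. The RNA was sequenced from Ewing sarcoma cell lines, in which a fusion of EWS with an ETS factor, mostly FLI1, drives the tumor. Controls in the A673 line were 8 libraries from the parental line (genotype WT, 1 library in each of 3 experiments) and from a single clone that carries a doxycycline-inducible Cas9 at the AAVS1 locus (genotype iCas9, 5 libraries, called the WT clone). All A673 KO clones were made from that WT clone, so they share the iCas9 allele and a single-cell origin that the parental line lacks. They comprised 5 STAG2 KO libraries (2 in experiment 1, 3 in experiment 2), 3 EZH2 KO and 3 SUZ12 KO libraries (experiment 2) and 3 STAG1 KO libraries (experiment 3), each a separate clone by its label. In experiment 4, A673 cells of genotype WT were transfected with an siRNA against STAG2 (siSTAG2, 3 libraries) or mock transfected (siC, 3 libraries). SK-N-MC cells, which express STAG2, were compared with an edited STAG2 KO clone, both carrying iCas9, and A4573 cells, which lack STAG2, with a clone in which STAG2 was restored by knock-in (STAG2 KI), with 1 library each.

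An imprinted gene is read mainly from the copy inherited from 1 parent, because DNA methylation set in the germ line differs between the copies. Imprinted genes lie in domains, where a differentially methylated control region sets the state of several neighbors, often through a long noncoding RNA, CTCF binding or Polycomb marks. They are known for roles in fetal growth and in the placenta, and many are switched on or off in cultured and tumor cells. Cohesin forms chromatin loops with either STAG1 or STAG2, and PRC2, through EZH2 and SUZ12, places the repressive mark H3K27me3. The libraries measured total RNA of both copies, so that the parental origin of a transcript was not read.

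Reads assigned to genes numbered 15734628 to 20663679 in the A673 clone libraries, 29322507 to 32261248 in the SK-N-MC and A4573 libraries and 6852340 to 8184632 in the knockdown libraries. Levels are given below as CPM, the count of a gene scaled to the normalized size of its library. Between both experiment 1 libraries of the WT clone the mean chi-square per gene was 1.33, against 9.41 to 140 for other pairs within a group, and they were kept as 2. The highest values, 113 and 140, were those of STAG2 KO clone 5 of experiment 2 with the other clones. Summing the near-identical pair into 1 left the PEG3 result below at -1.49 (adjusted p = 0.00926). Of 8 Ewing sarcoma markers, 7 reached 5 CPM, and CD99 was listed at 0 in all 26 count libraries, so that a 0 in these tables may be a gene that was not counted. Markers of leukocytes, endothelium and epithelium summed to at most 6.40 CPM per list in A673 clones; in the SK-N-MC STAG2 KO library, the leukocyte list reached 57.4 CPM, nearly all of it PTPRC and none of it CD3E, and the epithelial list 10.9 CPM, mostly EPCAM. The targeted transcript was lower in 3 of the 4 KO genotypes. STAG2 fell from 299 ± 34.5 CPM (SD, n = 6) to 83.9 ± 57.0 (n = 5), with 184 CPM in the STAG2 KO library headed 24 in the count table. EZH2 was at 28.4 to 55.3 CPM in EZH2 KO against 172 to 194 CPM in the controls of experiment 2, and SUZ12 at 11.3 to 20.6 CPM in SUZ12 KO against 60.3 to 67.1 CPM. STAG1 was at 61.5 CPM in the library labelled STAG1 KO headed 1, within the 57.8 to 69.6 CPM of its 2 controls, and at 15.1 and 33.2 CPM in those headed 5 and 7.

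RefSeq start windows, from 250 bases before to 50 bases after a transcription start (GRCh38.p14), were at hand for 5 of the 10 genes, with 1 window for H19, 3 for MEG3, and 5 each for MEST, PLAGL1 and GRB10. For each gene with a hexamer in a window, the window with the most is shown, because the control regions of imprinted genes are rich in CpG and hold the hexamer TGCCGC that, in its methylated form, is bound by ZFP57, a factor that keeps imprints. Capitals mark that hexamer on either strand (TGCCGC or GCGGCA, overlaps allowed).
PLAGL1: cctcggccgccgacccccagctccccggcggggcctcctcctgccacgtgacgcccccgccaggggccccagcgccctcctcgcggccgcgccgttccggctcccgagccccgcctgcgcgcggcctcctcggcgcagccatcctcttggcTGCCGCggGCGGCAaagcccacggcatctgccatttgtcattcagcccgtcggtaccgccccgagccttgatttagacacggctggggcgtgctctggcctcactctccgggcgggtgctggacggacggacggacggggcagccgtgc
GRB10: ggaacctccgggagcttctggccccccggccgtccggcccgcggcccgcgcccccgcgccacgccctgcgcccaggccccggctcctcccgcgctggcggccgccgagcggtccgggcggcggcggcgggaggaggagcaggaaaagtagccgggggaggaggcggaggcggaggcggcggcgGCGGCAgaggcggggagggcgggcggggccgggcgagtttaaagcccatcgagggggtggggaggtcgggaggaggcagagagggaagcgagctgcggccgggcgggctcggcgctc
MEST: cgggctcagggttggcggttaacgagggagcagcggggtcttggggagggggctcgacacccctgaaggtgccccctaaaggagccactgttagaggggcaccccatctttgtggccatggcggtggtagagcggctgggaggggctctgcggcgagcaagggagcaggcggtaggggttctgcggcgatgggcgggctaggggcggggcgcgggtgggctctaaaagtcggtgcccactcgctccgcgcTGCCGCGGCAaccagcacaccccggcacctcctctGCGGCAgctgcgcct
MEG3: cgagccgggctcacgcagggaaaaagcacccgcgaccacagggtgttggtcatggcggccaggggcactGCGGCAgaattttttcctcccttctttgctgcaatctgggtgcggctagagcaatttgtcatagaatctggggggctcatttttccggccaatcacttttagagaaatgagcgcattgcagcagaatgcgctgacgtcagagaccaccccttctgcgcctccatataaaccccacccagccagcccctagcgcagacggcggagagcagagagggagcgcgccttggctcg
The PLAGL1 window is chr6:144008210-144008509 (- strand), that of GRB10 chr7:50793404-50793703 (-), that of MEST chr7:130491835-130492134 (+) and that of MEG3 chr14:100825858-100826157 (+), and each is read 5′ to 3′ along its gene. They hold 2, 1, 3 and 1 hexamers and 39, 44, 25 and 19 CpG dinucleotides, respectively, beside a median of 14 CpG in 35116 windows of the same length. They were chosen by the hexamer, which itself contains a CpG, so that their CpG counts are raised in part by that choice. The other MEST windows had 13, 22, 16 and 22 CpG. The hexamer was in 9 of the 19 windows of these genes, many of which overlap, and in 16.7% of all windows. The other 4 PLAGL1 windows held none, and 3 of them had only 2 or 3 CpG. The other GRB10 windows also held none, at 49, 24, 3 and 4 CpG. Whether a window shown lies in a control region was not tested. The H19 window (chr11:2001217-2001516, - strand) held 6 CpG and no hexamer. A pair of GGAA units (GGAAGGAA or its complement), the sequence that EWS::FLI1 recognizes in repeats, was in none of the 19 windows and in 3.67% of all windows. These matches are descriptions of the letters and no evidence of binding.

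PEG3 (ENSG00000198300, chr19:56810077-56840728, - strand) encodes a zinc finger protein expressed from the paternal copy. It was lower in the STAG2 KO clones. The 6 STAG2-proficient libraries of experiments 1 and 2 had 624 to 1148 CPM (median 968 CPM). In the 5 libraries of STAG2 KO clones it was at 371, 313, 326, 394 and 148 CPM, the last in the library of clone 5. No STAG2 KO library reached the lowest STAG2-proficient one. In bulk RNA, fewer cells with PEG3 and less PEG3 RNA per cell cannot be told apart. PEG3 was 2.84-fold lower (log2 fold change -1.51 ± 0.26 SE, adjusted p = 0.00349, edgeR quasi-likelihood test). It was the sole member called among the 5 that passed the filter on low counts, in a comparison that called 12.4% of all genes tested. Within experiment 1 alone the change was -1.32 (adjusted p = 0.0166), and within experiment 2 alone -1.68 (adjusted p = 0.0552), where the call was lost. The call held in each of the 11 fits that left out 1 library, at -1.64 to -1.33.

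**Figure D1:**
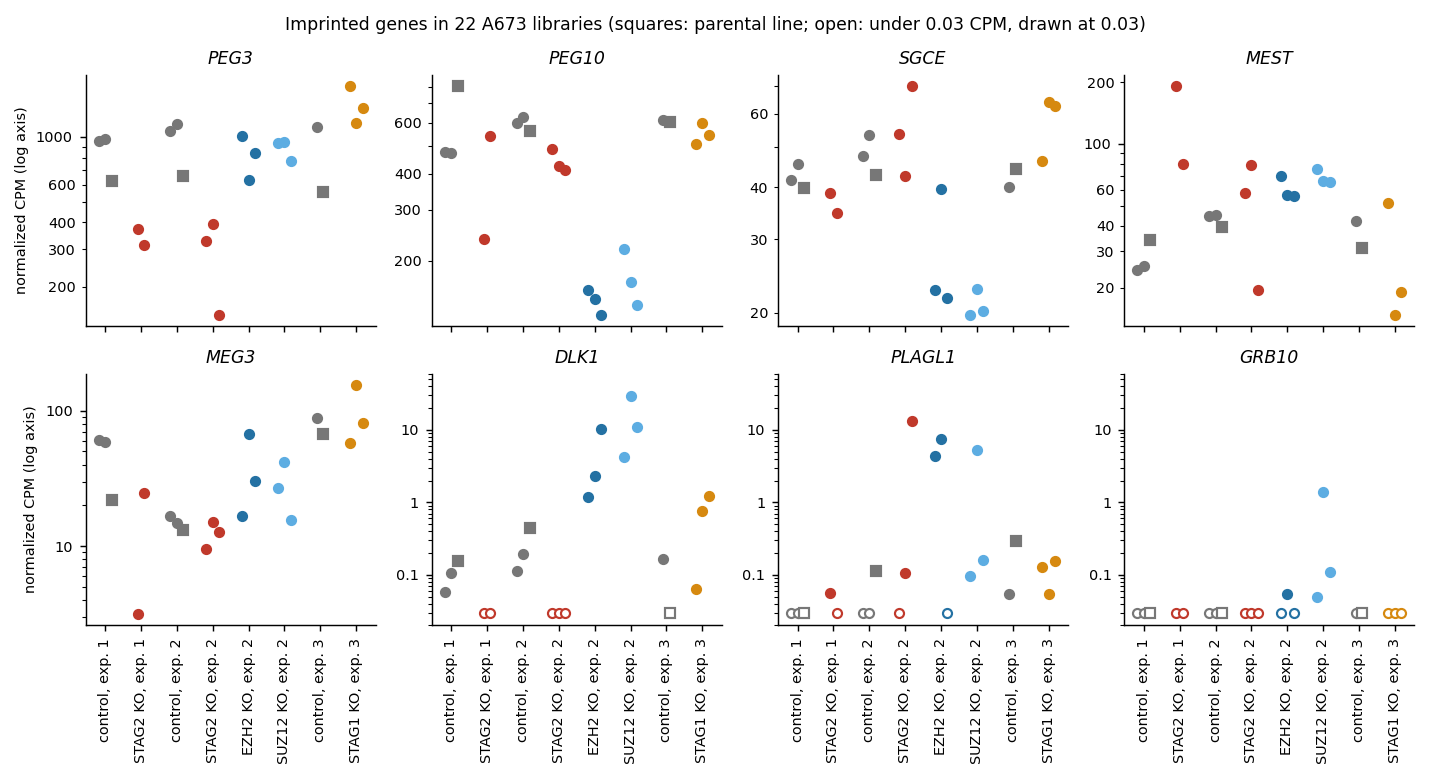
Normalized CPM (log axes) of 8 imprinted genes in the 22 A673 clone libraries, grouped by genotype and experiment, with 1 point per library, squares for the parental line and open points for values under 0.03 CPM. STAG2 KO libraries lie below all others for PEG3, PRC2 KO libraries below all others for PEG10, and PLAGL1 is above 4 CPM in 4 KO libraries and under 0.3 CPM in the other 18.

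PEG3 also differed between the 2 kinds of control. It was at 953, 983, 1068, 1148 and 1108 CPM in the WT clone and at 624, 655 and 554 CPM in the parental line. The groups did not overlap, and the difference was 1.70-fold (log2 0.77 ± 0.09, adjusted p = 0.00369), in a comparison that called 2.72% of all genes. Because all KO clones derive from the WT clone, STAG2 KO was also set against WT clone libraries alone, where PEG3 was lower by -1.71 on the log2 scale (adjusted p = 0.00469). Of the exon bases of PEG3, 50.9% are shared with other annotated genes, chiefly ZIM2 on the same strand, and reads from these cannot be told apart.

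Knockdown of STAG2 gave a change of like size. With siSTAG2, STAG2 itself was at 144, 180 and 153 normalized reads against 1068, 992 and 1090 with siC. PEG3 was at 1781, 1377 and 1741 normalized reads in the siC libraries and at 568.045, 568.351 and 606 in the siSTAG2 libraries. It was 2.79-fold lower, with a log2 difference of -1.48 ± 0.08 on the log2(value + 1) scale (adjusted p = 1.26e-13, limma). Of the 6 members tested in the knockdown, 3 were called, all lower, while 20.5% of all genes were called.

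PEG3 was not lower in the STAG1 KO libraries. STAG1 KO libraries had 1728, 1165 and 1368 CPM, above both of their controls (1108 CPM in the WT clone, 554 in the parental line), but the log2 difference of 0.77 ± 0.32 did not pass the test (adjusted p = 0.205). The first of these libraries, headed 1, had STAG1 at control level, and without it the difference was 0.61 (adjusted p = 0.272). None of the 6 members tested was called in STAG1 KO, where 5.27% of all genes were. Without the library headed 1, MEST (-1.11, adjusted p = 0.0378) and SGCE (0.60, adjusted p = 0.0252) were called. SGCE was at 46.3, 64.2 and 62.8 CPM in STAG1 KO and at 40.0 and 44.2 CPM in the controls (0.46 ± 0.16, adjusted p = 0.154 with all libraries). The effect of STAG2 KO on PEG3 differed from that of STAG1 KO by -2.31 ± 0.48 on the log2 scale (adjusted p = 0.0121). This direct test called 6.11% of all genes and 1 of 5 members. Without the parental library of experiment 3, it gave -1.89 (adjusted p = 0.134), so that the call rests on that library. After PRC2 loss PEG3 overlapped its controls, with 1009, 633 and 842 CPM in EZH2 KO and 933, 946 and 773 CPM in SUZ12 KO, against 1068, 1148 and 655 CPM in the controls of experiment 2. The log2 differences were -0.12 ± 0.32 and -0.04 ± 0.32 (adjusted p = 0.819 and 0.936).

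**Figure D2:**
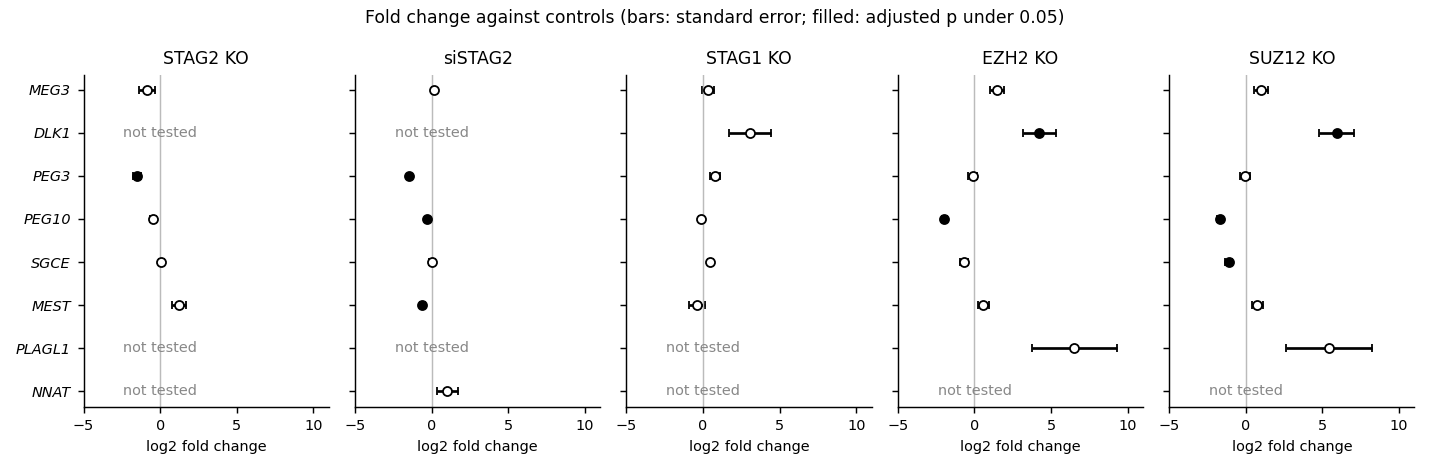
Log2 fold change against controls (x axis, bars: standard error) of 8 members in the 4 KO genotypes and in the knockdown, with filled points for an adjusted p under 0.05. PEG3 is lower by -1.51 in STAG2 KO and by -1.48 with siSTAG2, and PEG10 by -1.96 and -1.69 in EZH2 and SUZ12 KO.

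PEG10 (ENSG00000242265, chr7:94656325-94669695, + strand), a gene derived from a retrotransposon and needed for the placenta, and its neighbor SGCE (ENSG00000127990, chr7:94524204-94656572, - strand), which encodes epsilon-sarcoglycan, start from a shared control region in opposite directions. Their exons overlap there by 3.27% of PEG10 and 1.05% of SGCE, and the libraries did not keep strand. PEG10 was lower after PRC2 loss. It was at 601, 629 and 560 CPM in the controls of experiment 2. EZH2 KO libraries had 158, 147 and 129 CPM, and SUZ12 KO libraries had 219, 168 and 140 CPM. All 6 PRC2 KO libraries were below every control, by 3.88-fold in EZH2 KO (log2 -1.96 ± 0.17, adjusted p = 4.41e-05) and 3.23-fold in SUZ12 KO (log2 -1.69 ± 0.16, adjusted p = 7.67e-05).

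SGCE moved the same way in the same libraries. It was at 47.6, 53.4 and 42.8 CPM in the controls, at 19.8, 22.8 and 20.2 CPM in SUZ12 KO, and at 22.7, 39.5 and 21.7 CPM in EZH2 KO. The difference was called in SUZ12 KO (2.18-fold, log2 -1.12 ± 0.25, adjusted p = 0.0081) but not in EZH2 KO (log2 -0.69 ± 0.25, adjusted p = 0.0837), where the library of clone 2 lay nearest to the controls. It was called there without EZH2 KO clone 2 (-1.03, adjusted p = 0.0104), without STAG2 KO clone 5 (-0.69, adjusted p = 0.0397) and by DESeq2 (adjusted p = 0.0402). The difference between EZH2 KO and SUZ12 KO was not called for SGCE (0.44 ± 0.25, adjusted p = 0.999). That comparison called none of the 7 members tested and 0.00661% of all genes (1 gene, with 629 at an unadjusted p under 0.05 and 20 by DESeq2).

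With STAG2 loss, PEG10 shifted less. STAG2 KO libraries had 237, 540, 487, 424 and 411 CPM, against 471 to 805 CPM (median 580) in the STAG2-proficient libraries, and the groups overlapped. The log2 difference of -0.46 ± 0.21 did not pass (adjusted p = 0.19). In the knockdown, PEG10 went from 1859, 1587 and 1475 to 1348, 1298 and 1282 normalized reads, a 1.25-fold decrease (log2 -0.32 ± 0.07, adjusted p = 0.00148). SGCE was at 47.5 ± 6.65 normalized reads with siSTAG2 and at 46.8 ± 9.33 with siC (SD, n = 3), which overlap. The libraries with STAG2 KO held 34.7 to 70.0 CPM of SGCE and those with STAG2 39.8 to 53.4 CPM, with a log2 difference of 0.07 ± 0.15 (adjusted p = 0.815).

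DLK1 (ENSG00000185559, chr14:100725705-100738224, + strand) encodes a paternally expressed transmembrane ligand of the Notch family that holds back differentiation, and MEG3 (ENSG00000214548, chr14:100779410-100861031, + strand) is the maternally expressed long noncoding RNA of the same domain. DLK1 was near 0 in control A673 cells and present after PRC2 loss. Controls of experiment 2 had 2, 3 and 8 reads. EZH2 KO libraries had 25, 42 and 217 reads (1.205, 2.29 and 10.4 CPM), and SUZ12 KO libraries had 86, 650 and 206 reads (4.20, 29.5 and 11.1 CPM). Every PRC2 KO library exceeded every control, while clones of the same genotype differed by 8.59-fold in EZH2 KO and 7.03-fold in SUZ12 KO. The fitted log2 differences were 4.24 ± 1.06 in EZH2 KO (adjusted p = 0.0256) and 5.92 ± 1.11 in SUZ12 KO (adjusted p = 0.005). DLK1 passed the filter on low counts only through these KO libraries. The EZH2 KO call was lost, at adjusted p between 0.0589 and 0.105, without any of the 3 controls or without EZH2 KO clone 3, at log2 2.84 in the latter, and the SUZ12 KO call held in all 12 fits that left out 1 library.

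No read of DLK1 was counted in any of the 5 STAG2 KO libraries, which allows up to 3 reads in each. The STAG2-proficient libraries had 1, 2 and 3 reads in experiment 1 and 2, 3 and 8 in experiment 2. DLK1 did not pass the filter there and, with no filter, was lower in STAG2 KO at adjusted p = 0.0225. The STAG1 KO libraries had 1, 14 and 24 reads, the lowest in the library headed 1, against 3 and 0 in their controls (log2 3.07 ± 1.39, adjusted p = 0.234). PRC2 KO and STAG2 KO were set directly against each other in experiment 2 (adjusted p = 0.00166, edgeR). Mean DLK1 was at least 60.8-fold higher in PRC2 KO, taking 3 reads per library as the limit for STAG2 KO. This bound on the mean was 28.7-fold for EZH2 KO alone and 92.8-fold for SUZ12 KO alone. DLK1 was at 0.93 to 2.95 normalized reads in the knockdown and was not tested there.

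The level of MEG3 in control cells differed between experiments. WT clone and parental libraries had 60.9, 58.2 and 21.96 CPM in experiment 1, 16.7, 14.9 and 13.2 CPM in experiment 2 and 87.8 and 67.6 CPM in experiment 3. STAG2 KO libraries had 3.17 and 24.8 CPM in experiment 1 and 9.61, 15.001 and 12.8 CPM in experiment 2. The log2 difference of -0.86 ± 0.51 did not pass (adjusted p = 0.324). EZH2 KO libraries had 16.8, 67.0 and 30.5 CPM and SUZ12 KO libraries 26.9, 42.1 and 15.7 CPM. All EZH2 KO values were above the controls, by 1.45 ± 0.46 on the log2 scale, which missed the threshold (adjusted p = 0.0533), and those of SUZ12 KO overlapped them (0.99 ± 0.46, adjusted p = 0.148). The EZH2 KO difference passed by DESeq2 (adjusted p = 0.0135), with no filter (0.0442), with only the groups compared (0.0461), and without EZH2 KO clone 1 (1.80, adjusted p = 0.0178), STAG2 KO clone 5 (0.0408) or SUZ12 KO clone 2 or 3 (0.0479 and 0.0477). The contrast of STAG2 KO with both PRC2 KO genotypes was called for MEG3 (-1.41 ± 0.42, adjusted p = 0.0249). That call was lost without STAG2 KO clone 3 (adjusted p = 0.0521) or clone 2 (0.0964). The knockdown left MEG3 at 117.6, 123.3 and 98.5 normalized reads, against 95.3, 111 and 96.9 with siC (adjusted p = 0.461).

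MEST (ENSG00000106484, chr7:130486171-130506465, + strand) encodes a hydrolase-like protein expressed from the paternal copy in mesoderm. Its level after STAG2 loss varied between clones. STAG2 KO libraries of experiment 1 had 191 and 79.9 CPM, against 24.3, 25.4 and 34.0 CPM. In experiment 2 the STAG2 KO libraries had 57.6, 79.2 and 19.5 CPM, against 44.7, 45.2 and 39.6 CPM. Clone 5 of experiment 2 was thus below all controls and the other 4 clones were above them. The log2 difference of 1.23 ± 0.44 did not pass (adjusted p = 0.0925). It passed by DESeq2 (1.22, adjusted p = 0.0245), in experiment 1 alone (2.28, adjusted p = 0.0141), and without clone 5 of experiment 2 (1.55, adjusted p = 0.00539). The effect in experiment 2 minus that in experiment 1 was -1.96 ± 0.64 (adjusted p = 0.0949). That comparison called none of 5 members and 0% of all genes by edgeR, with 4150 at an unadjusted p under 0.05 and 2222 called by DESeq2, MEST among them (adjusted p = 0.0225).

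In the knockdown, MEST was lower. The knockout and knockdown effects were not tested against each other. It was at 92.5, 68.9 and 96.9 normalized reads with siC and at 59.9, 48.2 and 58.0 with siSTAG2, without overlap (log2 -0.62 ± 0.17, adjusted p = 0.0103). The call was lost when siC library 1 or 3 or siSTAG2 library 2 was left out, at adjusted p between 0.0521 and 0.0675 and log2 -0.56 to -0.52. STAG1 KO libraries had 51.5, 14.7 and 18.9 CPM, of which the first is the library with STAG1 at control level. Against the controls at 42.1 and 31.1 CPM the log2 difference was -0.37 ± 0.53 (adjusted p = 0.705), and without that first library -1.11 (adjusted p = 0.0378). MEST was at 55.5 to 69.6 CPM in EZH2 KO and at 65.5 to 75.6 CPM in SUZ12 KO, above all controls, with log2 differences of 0.57 ± 0.35 and 0.75 ± 0.35 that did not pass (adjusted p = 0.291 and 0.152). Without STAG2 KO clone 5 in the shared estimate of spread, both passed (adjusted p = 0.0146 and 0.0026). Of the exon bases of MEST, 27.6% overlap COPG2 and MESTIT1 on the opposite strand.

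**Figure D3:**
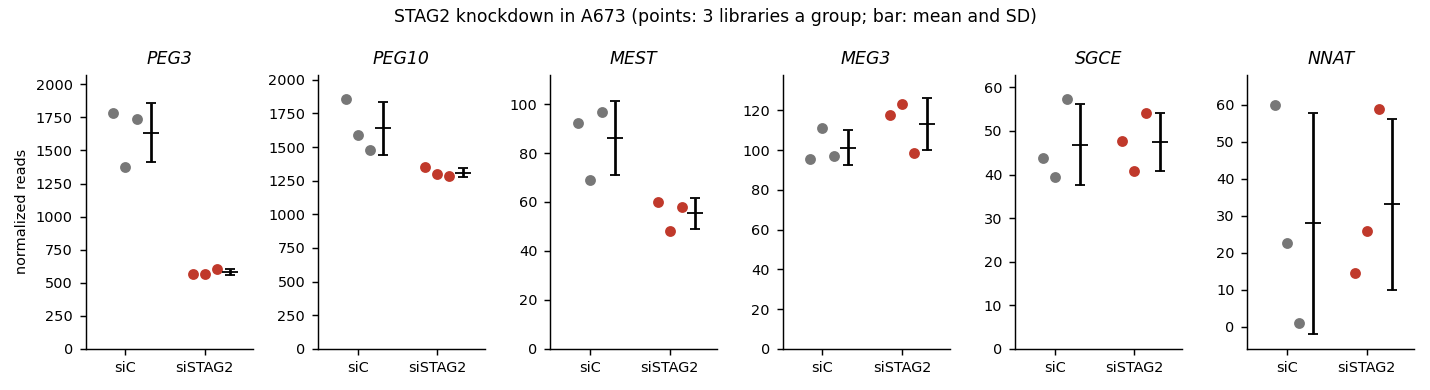
Normalized reads of 6 members in the 3 siC and 3 siSTAG2 libraries (points), with mean and SD beside them, on axes that include 0. PEG3, PEG10 and MEST are lower in each siSTAG2 library than in each siC library, while MEG3, SGCE and NNAT overlap.

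PLAGL1 (ENSG00000118495, chr6:143940300-144064599, - strand) encodes a zinc finger factor that restrains the cell cycle and is itself a regulator of other imprinted genes. It switched between clones of the same genotype. The 8 control libraries had 0 to 6 reads. Among the STAG2 KO libraries, clone 5 of experiment 2 had 251 reads (13.2 CPM), and the other 4 had 0, 1, 0 and 2. EZH2 KO clones 1 and 2 had 90 and 137 reads (4.34 and 7.48 CPM) and clone 3 had 0. SUZ12 KO clone 2 had 118 reads (5.35 CPM), and clones 1 and 3 had 2 and 3. The 3 STAG1 KO libraries had 2, 1 and 3 reads.

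A group was counted as switching where it held both a library with at most 3 reads and a library with at least 5 CPM. By this rule PLAGL1 switched in 3 of the 5 KO groups, and no other member in any. Of the 18363 genes with more than 3 reads in a KO library, 0.496% (91 genes) switched in at least 1 KO group. Of these, 87 switched in 1 group, 3 in 2 groups and 1, PLAGL1, in 3. The tests of PLAGL1 did not pass in EZH2 KO (log2 6.52 ± 2.79, adjusted p = 0.139) or SUZ12 KO (5.44 ± 2.79, adjusted p = 0.194). In STAG2 KO it did not pass the filter on low counts, and with no filter it was called at adjusted p = 0.0488, on the reads of 1 clone. PHACTR2, its neighbor on chromosome 6, was called higher in STAG2 KO (log2 2.46 ± 0.58, adjusted p = 0.0183) and EZH2 KO (3.01 ± 0.75, adjusted p = 0.0191). The level of PHACTR2 in the STAG2 KO clones of experiment 2 was 2.11, 13.3 and 20.4 CPM in clones 2, 3 and 5, and only clone 5 had PLAGL1. In EZH2 KO it was 12.8 and 16.6 CPM in clones 1 and 2, which had PLAGL1, and 3.67 CPM in clone 3, which had none. In SUZ12 KO it was 4.49 CPM in clone 2, which had PLAGL1, and 6.20 and 6.27 CPM in clones 1 and 3, all above the controls of experiment 2, with a log2 difference of 2.02 ± 0.73 that did not pass (adjusted p = 0.0714).

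GRB10 (ENSG00000106070, chr7:50590063-50793462, - strand) encodes an adapter that dampens insulin and growth factor receptor signaling. In A673 it was at 0 to 2 reads in 21 of the 22 clone libraries and at 31 reads (1.41 CPM) in SUZ12 KO clone 2, the clone that also had PLAGL1 and the highest DLK1 level. H19 (ENSG00000130600, chr11:1995166-2004552, - strand), the maternally expressed noncoding RNA that hosts miR-675, had 1 read in each of 2 SUZ12 KO libraries and 0 in the other 20. NNAT (ENSG00000053438, chr20:37521206-37523690, + strand), which encodes a proteolipid of the developing brain, was listed at 0 in all 26 count libraries. In the knockdown table, which lists genes by Ensembl identifier, NNAT had 60.05, 22.6 and 1.04 normalized reads with siC and 14.4, 26.0 and 58.9 with siSTAG2. Libraries of the same treatment thus differed more than the treatments did (log2 1.03 ± 0.68, adjusted p = 0.311). Without siC library 1 it was called at 2.07 (adjusted p = 0.0147), and with no filter on low values at 1.03 (adjusted p = 0.0354).

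**Figure D4:**
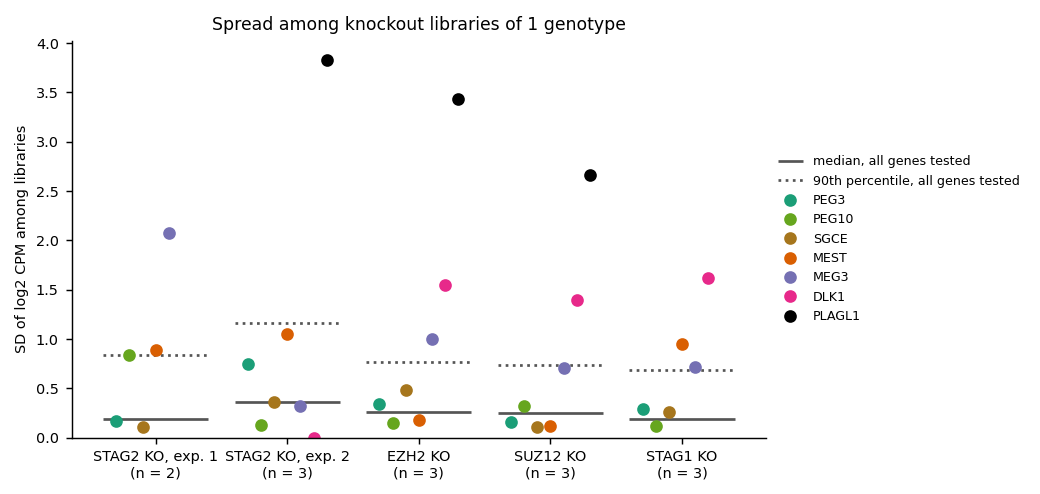
SD of log2 CPM among KO libraries of the same genotype and experiment (y axis) for the members that passed the filter in that experiment, with the median and the 90th percentile over all genes tested as lines. PLAGL1, at 3.83, 3.43 and 2.67, lies above the 90th percentile in experiment 2, and DLK1 does so in EZH2, SUZ12 and STAG1 KO, but both entered the comparison with all genes only through KO libraries in which they are high.

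Spread between clones was described by the SD of log2 CPM within a KO group. MEG3 had an SD of 2.07 in STAG2 KO of experiment 1, 0.997 in EZH2 KO, 0.71 in SUZ12 KO and 0.72 in STAG1 KO. MEST had 1.06 in STAG2 KO of experiment 2, 0.95 in STAG1 KO and 0.11 in SUZ12 KO. PEG3 ranged from 0.16 to 0.75 and PEG10 from 0.12 to 0.84. DLK1 and PLAGL1 passed the filter only through KO libraries in which they are high, so that a large SD among those libraries is built in and they are no evidence on the spread of the members. With them included where they passed, the median over members that passed the filter was 0.84 in STAG2 KO of experiment 1 (2 libraries), 0.36 in STAG2 KO of experiment 2, 0.48 in EZH2 KO, 0.32 in SUZ12 KO and 0.50 in STAG1 KO, beside 0.19, 0.36, 0.26, 0.25 and 0.19 over all genes tested. In STAG2 KO of experiment 1 neither had passed. Without them, the middle value in STAG2 KO of experiment 2 was that of SGCE, again 0.36. In EZH2, SUZ12 and STAG1 KO it was that of PEG3, at 0.34, 0.16 and 0.29.

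The 2 kinds of chromatin loss were compared without controls by setting STAG2 KO of experiment 2 against EZH2 and SUZ12 KO together. Of the 7 members tested, 5 were called, and 29.7% of all genes were. PEG10 (2.74-fold, adjusted p = 2.84e-05) and SGCE (2.27-fold, adjusted p = 0.00156) were higher in STAG2 KO, while PEG3 (2.996-fold, adjusted p = 0.00233), MEG3 and DLK1 were lower. MEST (-0.33 ± 0.30) and PLAGL1 (0.71 ± 1.55) were not called. Against their controls, EZH2 KO had 2 of 7 members called (DLK1 higher, PEG10 lower), where 15.7% of all genes were called. SUZ12 KO had 3 of 7 called (DLK1 higher, PEG10 and SGCE lower), where 20.6% of all genes were. These comparisons share their control libraries. The median log2 difference of the members tested was -0.46 in STAG2 KO, 0.57 in EZH2 KO, 0.75 in SUZ12 KO, 0.39 in STAG1 KO and -0.14 with siSTAG2, beside 0.04, 0.04, 0.01, 0.00 and 0.01 over all genes. DLK1 and PLAGL1 enter the PRC2 counts and medians, and DLK1 the STAG1 KO median, because they passed the filter through KO libraries in which they are high. The DLK1 calls are therefore no evidence on the share of members called, and these medians are none of a shift of the members. Among the other members tested, the middle value was that of PEG3, at -0.12 in EZH2 KO and -0.04 in SUZ12 KO. In STAG1 KO it was that of MEG3, at 0.33.

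Neighbors in the same imprinted domains were taken from a list of 29 genes. In STAG2 KO, 1 of 12 tested was called higher (PHACTR2) and 1 lower, where 12.4% of all genes were called. The lower gene was CEP41, next to MEST, which encodes a ciliary protein. It was at 0.26 to 1.42 CPM in STAG2 KO and at 3.42 to 28.0 CPM in STAG2-proficient cells (log2 -3.93 ± 0.73, adjusted p = 0.00557). CEP41 was also lower in the WT clone (1.63 to 8.58 CPM) than in the parental line (20.7 to 28.5 CPM, log2 -2.55 ± 0.31, adjusted p = 0.00387). The knockdown left it at 577 normalized reads, against 592 with siC (log2 -0.04 ± 0.08, adjusted p = 0.79, limma). In EZH2 KO, 3 of 14 were called higher (IGF2, DIO3 and PHACTR2) and none lower, and in SUZ12 KO, 2 higher (IGF2 and DIO3) and 3 lower (PPP1R9A, CASD1 and PON2), where 15.7% and 20.6% of all genes were called. IGF2, the fetal growth factor next to H19, had no read in the controls of experiment 2, 4, 1 and 12 reads in EZH2 KO and 12, 16 and 10 reads in SUZ12 KO. Controls of the other experiments had 5, 4 and 0 reads (experiment 1) and 1 and 3 reads (experiment 3), which overlap EZH2 KO. It passed the filter only through the KO libraries and was called against the controls of experiment 2 in both (adjusted p = 0.0405 and 0.0105), at least 3.49-fold higher in SUZ12 KO by a limit of 3 reads per control library, and it stayed under 1 CPM. Of the exon bases of IGF2, 44.4% are shared with other annotated genes, among them INS-IGF2 on the same strand and IGF2-AS on the opposite one. H19 was at 0 or 1 read in the same libraries. DIO3, the deiodinase at the far end of the DLK1 domain, had 0 or 1 read in these controls and no read in STAG2 KO. It had 12 to 18 reads in EZH2 KO and 17 to 48 in SUZ12 KO (adjusted p = 0.00833 and 0.00199). DIO3 passed the filter only through the PRC2 KO libraries. The calls of IGF2 and DIO3 are therefore no evidence on the share of these neighbors called. PPP1R9A, next to PEG10, was lower in SUZ12 KO with 4.88 to 5.76 CPM against 12.9 to 16.2 CPM (adjusted p = 0.0226), as was CASD1 (adjusted p = 0.0202). With STAG1 KO, 1 of 14 was called higher, PON2, a paraoxonase near PEG10 (log2 0.80 ± 0.12, adjusted p = 0.0268), where 5.27% of all genes were called. In the knockdown 1 of 10 was called lower, MRPL23 (log2 -0.42 ± 0.14, adjusted p = 0.0352), where 20.5% of all genes were called.

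Among 47 imprinted genes of other domains, the pair ZDBF2 and ADAM23 on chromosome 2 changed most after PRC2 loss. ZDBF2, a paternally expressed zinc finger gene, went from 0.000 to 0.171 CPM in the controls to 23.2 to 29.0 CPM in EZH2 KO and 23.4 to 31.2 CPM in SUZ12 KO (adjusted p = 1.25e-05 and 1.06e-05). ADAM23, a membrane adhesion protein, went from at most 0.192 CPM to 17.5 to 21.8 CPM in EZH2 KO and 9.71 to 20.5 CPM in SUZ12 KO. Both were under 0.4 CPM in every STAG2 KO library. They passed the filter on low counts only through the PRC2 KO libraries, so that their calls are no evidence on the share of these genes called. WT1, a zinc finger transcription factor, was higher in EZH2 KO (log2 1.97 ± 0.34) and SUZ12 KO (2.09 ± 0.35), and so was TP73, a relative of p53 (1.74 ± 0.50 and 1.72 ± 0.50). Of 31 tested, 4 in EZH2 KO and 6 in SUZ12 KO were called, all higher, with CDKN1C and GLIS3 added in the latter. These shares are near the 15.7% and 20.6% of all genes called, among which 1819 of 2377 and 2224 of 3112 were higher. In STAG2 KO, 2 of 26 were called, ERAP2 and TP73, both lower, where 12.4% of all genes were called. TP73 was at 0.67 to 3.05 CPM against 3.96 to 20.8 CPM (log2 -2.19 ± 0.50, adjusted p = 0.0158). STAG1 KO had 3 of 28 called, all higher, PHLDA2 (2.50 ± 0.34), LIN28B (1.56 ± 0.25) and IGF2R (0.56 ± 0.11), where 5.27% of all genes were called. The knockdown had 4 of 24 called higher and 2 lower, a share near the 20.5% of all genes called. There WT1 (0.78 ± 0.09), LIN28B (0.54 ± 0.10), SNHG14 (0.44 ± 0.11) and PHLDA2 (0.36 ± 0.07) were higher, SLC22A18 (-0.67 ± 0.17) lower and TP73 also lower. FAM50B, a retrogene with maternal methylation, was at 11.8 to 13.9 CPM in the parental line and at 0.000 to 0.292 CPM in the WT clone, a log2 difference of -6.38 ± 0.32 (adjusted p = 3.53e-05). It was under 1 CPM in 12 of the 14 KO clones, with 6.08 CPM in SUZ12 KO clone 2 and 1.94 CPM in clone 3.

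Factors that keep or set imprints were taken from a list of 20 genes. In STAG2 KO, 2 of 15 were called, both higher, the ARID4A and ARID4B chromatin factors (log2 0.41 ± 0.11 and 0.44 ± 0.11), a share near the 12.4% of all genes called. In EZH2 KO, 1 of 16 was called higher, CTCFL, and 1 lower, the insulator protein CTCF (-0.45 ± 0.14, adjusted p = 0.0482). SUZ12 KO had 2 higher, CTCFL and the DNA methyltransferase DNMT3B (0.90 ± 0.28, adjusted p = 0.0419), and 1 lower, TET3. These shares are no higher than the 15.7% and 20.6% of all genes called. STAG1 KO had 0 higher and 1 lower of 16, CTCFL, where 5.27% of all genes were called. The knockdown had none of 15 called in either direction, where 20.5% of all genes were called.

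The 3 lines used different imprinted genes, and levels are given per kb of exon for comparison between genes. In A673 controls PEG3 (56.7 to 117 CPM per kb) and PEG10 (70.4 to 120) were highest, ahead of MEST (5.09 to 9.49), SGCE (1.91 to 2.56) and MEG3 (0.57 to 3.78), whose ranges followed or overlapped, and DLK1, PLAGL1, GRB10 and H19 stayed under 0.1. In the SK-N-MC library with STAG2, PEG10 stood at 91.2 CPM per kb, H19 at 11.9, PLAGL1 at 3.47, GRB10 at 2.73, SGCE at 1.11, MEST at 0.997, PEG3 and DLK1 at 0.80 and 0.79, and MEG3 at 1 read. In A4573 with STAG2 KI, GRB10 was highest at 21.7, followed by PEG10 at 15.9, PLAGL1 at 12.7, H19 at 1.85, PEG3 at 1.74 and SGCE at 0.98, while MEST was at 0 and MEG3 at 1 read. MEG3 thus exceeded 1 read only in A673, and H19 exceeded 1 read only in SK-N-MC and A4573.

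**Figure D5:**
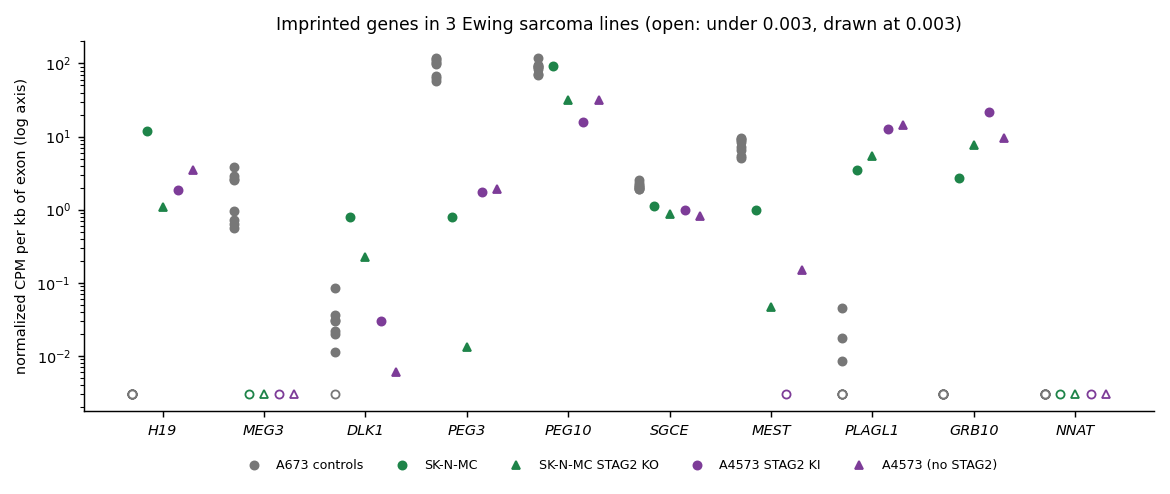
Normalized CPM per kb of exon (log axis) of the 10 genes in the 8 A673 control libraries, the SK-N-MC pair and the A4573 pair, with triangles for the libraries labelled STAG2 KO or lacking STAG2. H19, PLAGL1 and GRB10 are high in SK-N-MC and A4573 and at or near 0 in A673 controls, whereas PEG3, MEST and MEG3 are higher in A673 controls than in the other lines.

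The SK-N-MC pair had 1 library per state, so that its differences have no replicate check, and intervals cover counting error only. PEG3 fell from 269 to 4 reads (7.84 to 0.13 CPM), a ratio of 0.016 with a 95% interval of 0.0044 to 0.042 in the STAG2 KO library. MEST went from 163 to 7 reads (ratio 0.047, 0.019 to 0.099), H19 from 1415 to 119 reads (ratio 0.092), DLK1 from 142 to 37 reads (0.28, 0.19 to 0.41) and PEG10 from 20921 to 6627 reads (0.35). GRB10 went from 916 to 2379 reads (2.84, 2.63 to 3.07). By a limit of 2-fold, 5 of the 8 members with at least 10 reads were lower and 1 was higher, and 20.8% of all genes passed it in either direction. The leukocyte and epithelial markers that were higher in the same library are given above, and their part in these differences was not tested. STAG2 reads in this pair were 281 and 179 CPM.

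In A4573, the library without STAG2 was set against STAG2 KI, with STAG2 at 32.3 and 85.2 CPM. PEG3 had 591 reads without STAG2 and 544 with it (ratio 1.09, 0.97 to 1.23). GRB10 was lower without STAG2, at 3019 against 6800 reads (0.45, 0.43 to 0.47), the reverse of SK-N-MC. MEST had 23 reads without STAG2 and 0 with it, at least 7.72-fold higher by a limit of 3 reads. PEG10 (ratio 1.997, 1.92 to 2.08) and H19 (1.90, 1.601 to 2.26) were higher without STAG2, also the reverse of SK-N-MC. Of 7 members with at least 10 reads, 1 was past 2-fold higher and 1 lower, where 21.3% of all genes passed. PEG3 was thus lower after STAG2 loss in A673 clones, in the A673 knockdown and in the single SK-N-MC pair, while the interval of its ratio in A4573 included 1.

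The genes whose levels followed each member most closely over the 22 A673 clone libraries are given as a description, from Pearson's r of log2 CPM centered on the controls of each experiment, among the 11051 genes that averaged 5 CPM or more. The libraries share genotypes and experiments, and r therefore reflects those groups. For PEG3 they were PTTG1IP (0.95), EHD2 (0.94) and TMED1 (0.93), and for PEG10 KDELR2 (0.94), TTC9 (0.92) and GOLM1 (0.92). SGCE was followed by IFT57 (0.95), PIGN (0.94) and MARCHF1 (0.93), MEST by S1PR2 (0.86), KDM2B (0.85) and UXS1 (0.85), and MEG3 by SNX21, PHLDB3 and STAT2 (0.89 for each). DLK1 was followed by KRT8 (0.93) and A2M (0.91), and PLAGL1, which is at 0 in many libraries, by USP35 (0.85), BCHE (0.85) and SLC18B1 (0.84). Between members, r was 0.78 for PEG10 with SGCE, which share a start region, 0.57 for DLK1 with MEG3, which share a domain, and -0.68 for DLK1 with PEG10.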

How the data were processed

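Total RNA from established Ewing sarcoma lines (32 samples) was converted to non-directional, oligo-dT primed libraries and sequenced. Per the labels and the study's methods, the authors aligned reads to hg38 with TopHat 2.0.0, and name SAMtools 0.1.16 and Bowtie 0.12.7 in the processing notes. The counting tool and annotation are not given in the sources used here. The authors deposited raw counts per gene symbol for the 26 clone and isogenic libraries. The deposited knockdown table holds a normalized signal, read counts divided by a size factor per library, and 100.0% of its values came out as whole reads within 0.001 read.

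The members and gene lists were chosen with earlier results of these data known. Counts were tested with edgeR 4.0.16 (filterByExpr, TMM, quasi-likelihood; experiment as a term where 2 or more were pooled), and the knockdown with limma 3.58.1 on log2(value + 1) for genes with a mean of at least 10. P-values were adjusted by Benjamini-Hochberg over all genes tested in each comparison and called under 0.05. CPM used TMM factors over the 26 libraries, and log values a prior count of 2. Separate clones are replicates of a genotype. The labels of WT clone libraries do not say that cultures were separate, so p-values may measure technical spread there. The 2 STAG2 KO libraries of experiment 1 and the STAG1 KO libraries are named by their column headers, which match no single label. The header number 5 occurs among the STAG2 KO libraries of both experiments 1 and 2, while the labels give different clone numbers. Whether these 2 libraries share a clone was not tested. Isogenic pairs were compared by exact conditional and Poisson intervals (95%). All 10 members and IGF2 were named throughout. Of the other listed genes, the 6 with the largest change per comparison were eligible among called genes averaging 5 CPM or more (50 normalized reads for the knockdown), not all of which are given. PHACTR2 in STAG2 KO, CASD1, DIO3, PON2 in SUZ12 KO, ERAP2, CDKN1C, GLIS3, CTCFL, TET3, CEP41 and TP73 in the knockdown and the values of FAM50B and PHACTR2 in single clones fall outside that rule and were chosen after their values were seen. Alternatives were DESeq2 1.42.0, its size factors, no filter, each library left out, other controls, blocks and other pseudocounts. Scripts were tested on simulated data. A gene among those most like a member is not reported here. Exon overlaps and coordinates come from GENCODE (GRCh38, as in the files), and start windows from RefSeq (GRCh38.p14).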

Additional observations from a re-analysis of the deposited data

Results flagged for a closer look

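Of 17 member and group pairs examined for a library far from the others, 2 held one, and chance alone gives about 1 in 20. In STAG2 KO, PLAGL1 at 13.2 CPM in clone 5 of experiment 2 stood 0.992 of the range away from the nearest library. In the STAG2-proficient libraries, DLK1 at 0.446 CPM (8 reads) in the parental library of experiment 2 stood 0.654 of the range away. In that STAG2 KO clone 5, MEST (19.5 CPM) and PEG3 (148 CPM) were also the lowest and SGCE (70.0 CPM) the highest of the 5.

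A direct test of the difference between STAG2 KO and PRC2 KO passed for 5 of 7 members tested, where 29.7% of all genes were called. The differences were log2 -1.41 for MEG3, 1.45 for PEG10, -1.58 for PEG3 and 1.18 for SGCE. The fifth was DLK1, where the fitted -10.3 is no bound because no read was counted in STAG2 KO. DLK1 passed the filter only through PRC2 KO libraries, so that its call is no evidence on the share of members called. For PEG3, the STAG2 KO effect also differed from the STAG1 KO effect, by -2.31. Leaving out the parental library of experiment 3 ended that last call, and leaving out STAG2 KO clone 2 or 3 ended the MEG3 call.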

How the results depend on the processing

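Of 955 single-gene values recomputed under alternatives, 887 kept their direction and their side of the threshold, and of 155 recomputed counts of members, 133 stayed within 1.5 times. No called member changed direction. In STAG2 KO, 1 member was called, with 3 under no filter, 2 by DESeq2, 2 in experiment 1 alone, 0 in experiment 2 alone, and 1 to 2 with each library left out, the 2 without clone 5 of experiment 2. Summing the 2 near-identical WT clone libraries of experiment 1, an alternative chosen after seeing the data, left 1 member called. EZH2 KO had 2 called, and 4 by DESeq2, 1 with WT clone controls alone, 4 with only the groups compared and 1 to 6 with each library left out, 6 without STAG2 KO clone 5. SUZ12 KO had 3, and 5 with only the groups compared. STAG1 KO had 0, and 0 to 2 with each library left out (2 without the library headed 1), with no gene called without either control. The difference between STAG2 KO and STAG1 KO effects had 1, with 2 under no filter and 0 to 2 with each library left out. The difference between experiments had 0, with 1 by DESeq2 and 0 to 1 with each library left out (MEG3 without the STAG2 KO library headed 5, log2 3.68). WT clone against parental had 1, with 2 under no filter and 2 by DESeq2. Counts over all genes moved more: with each library left out they ran from 1053 to 4048 in STAG2 KO (1687 as reported; 3663 in experiment 1 alone, 494 in experiment 2 alone), 1169 to 3885 in EZH2 KO (2377; 1441 with WT clone controls), 1874 to 4797 in SUZ12 KO (3112), 0 to 1310 in STAG1 KO (757; 1914 by DESeq2), 195 to 1860 for STAG2 KO against STAG1 KO effects (898; 1546 by DESeq2) and 98 to 953 for WT clone against parental (385; 741 with no filter, 630 by DESeq2).

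Values that crossed 0 were small or uncertain. With each library left out, SGCE in STAG2 KO ran from -0.066 to 0.16 (-0.20 in experiment 1 alone), PEG3 from -0.35 to 0.029 in EZH2 KO and -0.27 to 0.089 in SUZ12 KO, and between these 2 genotypes MEG3 from -0.25 to 0.86 and PEG3 from -0.24 to 0.075. STAG2 KO against PRC2 KO gave MEST -0.76 to 0.058 and PLAGL1 -5.52 to 2.61. MEG3 in STAG1 KO ran from -0.16 to 0.61, PEG10 between experiments from -0.26 to 0.91, and WT clone against parental gave PEG10 -0.43 to 0.085 and MEST -0.16 to 0.29. In the knockdown NNAT ran from -0.38 to 2.07 and SGCE from -0.084 to 0.18. The cause was not tested.

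Same-numbered siC and siSTAG2 libraries did not deviate together (correlations 0.0257, 0.0372 and 0.00402). The replicate block left 3 members called in the knockdown (2881 genes against 2476), edgeR on recovered whole reads also called 3 members (2503 genes), and the block left 0 called between EZH2 KO and SUZ12 KO. At 15734628 to 20663679 reads per A673 clone library, differences among members at 3 reads or fewer were not detectable.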
